A study of Bos taurus with 4 samples.

Results

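In subcutaneous fat of 2 cattle, 58 of 7009 kept nuclei carried AQP1 or MMRN1 RNA, endothelial gene RNA and no RNA of excluded genes. They were chosen by a gate on counts of unique molecular identifiers (UMIs, one per captured RNA molecule). A nucleus was kept if at least 200 genes were detected in it. It entered the gate with at least 1 UMI of AQP1 or MMRN1, at least 1 UMI of any of PECAM1, CDH5, EGFL7, PTPRB, VWF and EMCN, and 0 UMIs of BMX, GJA5, GPIHBP1, CD300LG, PDGFRA and CSF1R. The gate held 24 of 881 kept nuclei of animal 1 and 34 of 6128 of animal 2. The whole series held 8849 kept nuclei. The 14 genes of the gate chose the nuclei, so their values are given as a description and were not tested. The nuclei are called gated nuclei here, those with an MMRN1 UMI MMRN1-positive, and the rest AQP1-only.

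Endothelial cells line blood and lymphatic vessels. AQP1 encodes a water channel of many blood endothelial cells and of red cells. MMRN1 encodes multimerin, a large secreted protein of platelets and endothelium that is often used as a lymphatic endothelial marker. Lymphatic vessels drain fluid, lipid and immune cells from tissue. In the mouse their identity is set by the transcription factor PROX1, and their growth needs FLT4, the receptor tyrosine kinase for VEGF-C. The venous nuclear receptor NR2F2 acts upstream of PROX1 in the mouse. BMX and GJA5 are known from arterial endothelium, GPIHBP1 and CD300LG from capillaries, PDGFRA from stromal progenitors and CSF1R from macrophages.

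The study sampled fat under the skin of the back (subcutaneous) and fat within muscle (intramuscular) from the same 2 cattle, with 1 library per depot and animal. The animals came from a commercial feedlot and received no treatment, and their diet, age and breed are not given. Nuclei were released by Dounce homogenisation and counted as single nuclei on the 10x platform, so no cell sort limited the types present. The kept nuclei held 1143166 UMIs in animal 1 and 4009437 in animal 2 of the subcutaneous depot, with medians of 847 and 518 UMIs per nucleus. Of the kept subcutaneous nuclei, 160 of animal 1 and 5463 of animal 2 had at least 10% of their UMIs from a list of 16 muscle fibre genes. Muscle RNA is therefore given beside several results below. Across all 4 libraries 5 barcodes were shared between libraries, and 0 of them lay in the gate.

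The gate divided into 14 MMRN1-positive and 10 AQP1-only nuclei in animal 1, and into 8 MMRN1-positive and 26 AQP1-only nuclei in animal 2. Both genes were detected together in 1 nucleus, in animal 1. The gated nuclei held 51 AQP1 UMIs in animal 1 and 38 in animal 2, and all other kept nuclei held 74 and 69. MMRN1 had 26 and 17 UMIs in gated nuclei, against 23 and 20 in all other kept nuclei. Most members thus rested on few molecules. In 12 of 24 gated nuclei of animal 1 and 25 of 34 of animal 2, AQP1 and MMRN1 together had exactly 1 UMI. At the other edge of the gate were nuclei with AQP1 or MMRN1, an endothelial gene and an excluded gene. The excluded genes removed 33 of 57 otherwise fitting nuclei of animal 1 and 18 of 52 of animal 2. Of those removed, 5 and 10 were left out for a single UMI of an excluded gene. Median depth was 919 UMIs per gated nucleus in animal 1 and 614 in animal 2, and no member fell under 300.

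A few deep nuclei weighed on these sums. In animal 2 a single MMRN1-positive nucleus held 4362 UMIs, which was 44.0% of the UMIs of its branch. In animal 1 a single AQP1-only nucleus held 26 of the 46 AQP1 UMIs of its branch. Muscle fibre genes took 2.66% of the UMIs of gated nuclei in animal 1 and 8.63% in animal 2, against 4.83% and 18.3% in all other kept nuclei. At least 10% muscle UMIs were found in 1 of 24 gated nuclei of animal 1 and 12 of 34 of animal 2, and 10 of those 12 were AQP1-only.

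**Figure D1:**
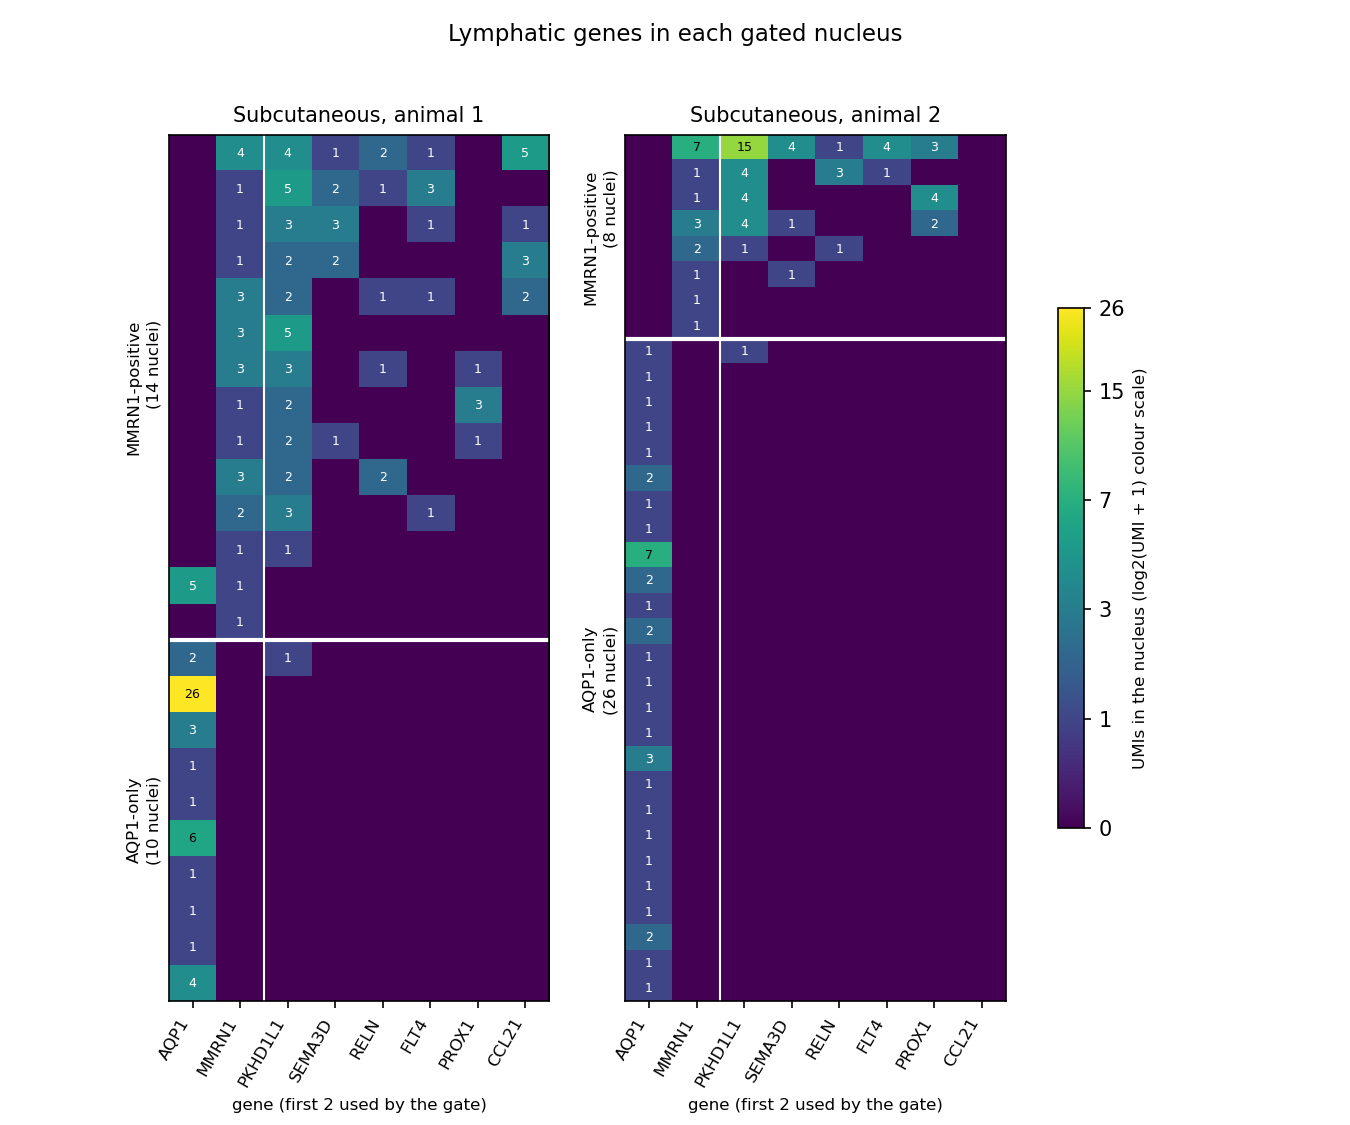
UMIs of 8 genes in each of the 58 gated nuclei, 1 row per nucleus, with MMRN1-positive nuclei above AQP1-only nuclei and 1 panel per animal. Numbers in the cells are UMIs, the colour follows log2(UMI + 1), and the 2 genes left of the white line were used by the gate. UMIs of PROX1, FLT4, RELN, SEMA3D and CCL21 stand in MMRN1-positive rows, and PKHD1L1 has 1 UMI in 1 AQP1-only row of each panel.

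Most lymphatic RNA of the gate lay in the MMRN1-positive nuclei. PROX1, FLT4, RELN, SEMA3D and CCL21 had 0 UMIs in AQP1-only nuclei, while NTS and part of STAB1 lay there. PROX1 was detected in 3 of 24 gated nuclei of animal 1 (12.5%, exact Clopper-Pearson 95% interval 2.66 to 32.4%) and in 3 of 34 of animal 2 (8.82%, 1.86 to 23.7%). Among all other kept nuclei it was detected in 15 of 857 (1.75%) and 46 of 6094 (0.755%). All of these gated nuclei were MMRN1-positive, where the share was 21.4% (4.66 to 50.8%) in animal 1 and 37.5% (8.52 to 75.5%) in animal 2. PROX1 had 0 UMIs in 10 and 26 AQP1-only nuclei, which at 3 counts allows shares of nuclei with a PROX1 UMI of up to 30.0% and 11.5% and sets no limit on nuclei that express it. Capillary-gated nuclei, which carry GPIHBP1 or CD300LG and an endothelial gene but no AQP1, MMRN1, BMX, GJA5, PDGFRA or CSF1R, served as a class that should lack PROX1. It had 0 UMIs in 38 and 50 of them, at median depths of 1146 and 994 UMIs. Before the other exclusions PROX1 was seen in 2 of 52 (3.85%) and 0 of 58 nuclei with a capillary and an endothelial gene. It was seen in 2 of 64 (3.12%) and 2 of 73 (2.74%) with an arterial and an endothelial gene. Nuclei with both a capillary and an arterial gene were counted with the arterial ones only. In endothelial-gene nuclei without those capillary and arterial genes, gated nuclei included, PROX1 was seen in 8 of 171 (4.68%) and 16 of 502 (3.19%).

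As a level, PROX1 reached 189 and 310 CPM over the gated nuclei of animals 1 and 2, against 25.1 and 12.8 CPM over all other kept nuclei. CPM (counts per the usual fixed total) scales a gene's UMIs to the same sum of UMIs in every class and library. The ratio was 7.52 in animal 1 (95% interval 2.27 to 19.7) and 24.2 in animal 2 (10.5 to 49.6). These intervals, and all others here, cover counting error only, and nuclei of a library are not replicates. In animal 2 the deepest MMRN1-positive nucleus held 3 of the 9 PROX1 UMIs. Without it, 6 UMIs remained in 2 nuclei. With every nucleus thinned to 300 UMIs, PROX1 was detected in 4.17% and 5.88% of gated nuclei, against 0.817% and 0.377% of all other kept nuclei. No kept subcutaneous nucleus held fewer than 300 UMIs, so none was left out by thinning.

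Within the gate, FLT4 was seen in MMRN1-positive nuclei only. It had 7 UMIs in 5 gated nuclei of animal 1 (20.8%, 7.13 to 42.2%) and 5 UMIs in 2 gated nuclei of animal 2 (5.88%, 0.720 to 19.7%). All other kept nuclei held 5 UMIs in 5 nuclei (0.583%) and 9 UMIs in 8 nuclei (0.131%). FLT4 stood at 264 and 172 CPM over gated nuclei, against 4.48 and 2.26 CPM over all other kept nuclei, a ratio of 59.0 (16.1 to 236) in animal 1 and 76.1 (20.0 to 253) in animal 2. In animal 2, 4 of the 5 UMIs came from the deepest nucleus, so that the value there rests mostly on 1 nucleus. Capillary-gated nuclei held 0 and 1 FLT4 UMIs. Without nuclei of at least 10% muscle UMIs, FLT4 was detected in 21.7% and 9.09% of gated nuclei. Among all other kept nuclei it was then detected in 0.573% and 0.311%.

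PKHD1L1, which encodes the large membrane protein fibrocystin-L, was found in most MMRN1-positive nuclei. It had 35 UMIs in 13 gated nuclei of animal 1 (54.2%) and 29 UMIs in 6 gated nuclei of animal 2 (17.6%). All but 1 UMI in each animal lay in MMRN1-positive nuclei, of which 12 of 14 (85.7%) and 5 of 8 (62.5%) carried it. Among all other kept nuclei it was found in 22 of 857 (2.57%) and 43 of 6094 (0.706%). The level over gated nuclei was 1320 and 998 CPM, against 43.0 and 21.6 CPM over all other kept nuclei, a ratio of 30.7 (19.3 to 48.5) and 46.2 (29.2 to 71.1). The deepest nucleus of animal 2 held 15 of its 28 MMRN1-positive UMIs. A further 13 UMIs remained in 4 nuclei without it.

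Several secreted or surface proteins known from lymphatic endothelium were seen in the same branch. SEMA3D, a secreted guidance cue of the semaphorin family, had 9 UMIs in 5 gated nuclei of animal 1 and 6 UMIs in 3 of animal 2. RELN, the matrix glycoprotein reelin, had 7 UMIs in 5 nuclei and 5 UMIs in 3 nuclei. CCL21, the chemokine that draws dendritic cells into lymphatic vessels, had 11 UMIs in 4 gated nuclei of animal 1 and 0 in animal 2. PDPN, the membrane glycoprotein podoplanin, had 3 and 1 UMIs. All of these UMIs were in MMRN1-positive nuclei. NTS, the neurotensin precursor, was the exception, since its 1 UMI in animal 1 and 7 UMIs in animal 2 lay in AQP1-only nuclei. STAB1, a scavenger receptor, was shared, with 9 and 8 UMIs in MMRN1-positive nuclei and 4 and 4 UMIs in AQP1-only nuclei.

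Other textbook lymphatic genes were at 0. LYVE1, a hyaluronan receptor, STAB2, FOXC2, NRP2 and TFF3 had 0 UMIs in the gated nuclei of both animals. Of the 20 lymphatic list genes outside the gate, 7 were at 0 in gated nuclei of animal 1 and 10 in those of animal 2. Summed over those 20 genes, the level was 6174 and 6457 CPM in MMRN1-positive nuclei, 516 and 679 CPM in AQP1-only nuclei, 283 and 144 CPM in capillary-gated nuclei and 484 and 113 CPM in all other kept nuclei. The AQP1-only level was thus close to that of all other kept nuclei in animal 1 and above it in animal 2.

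**Figure D2:**
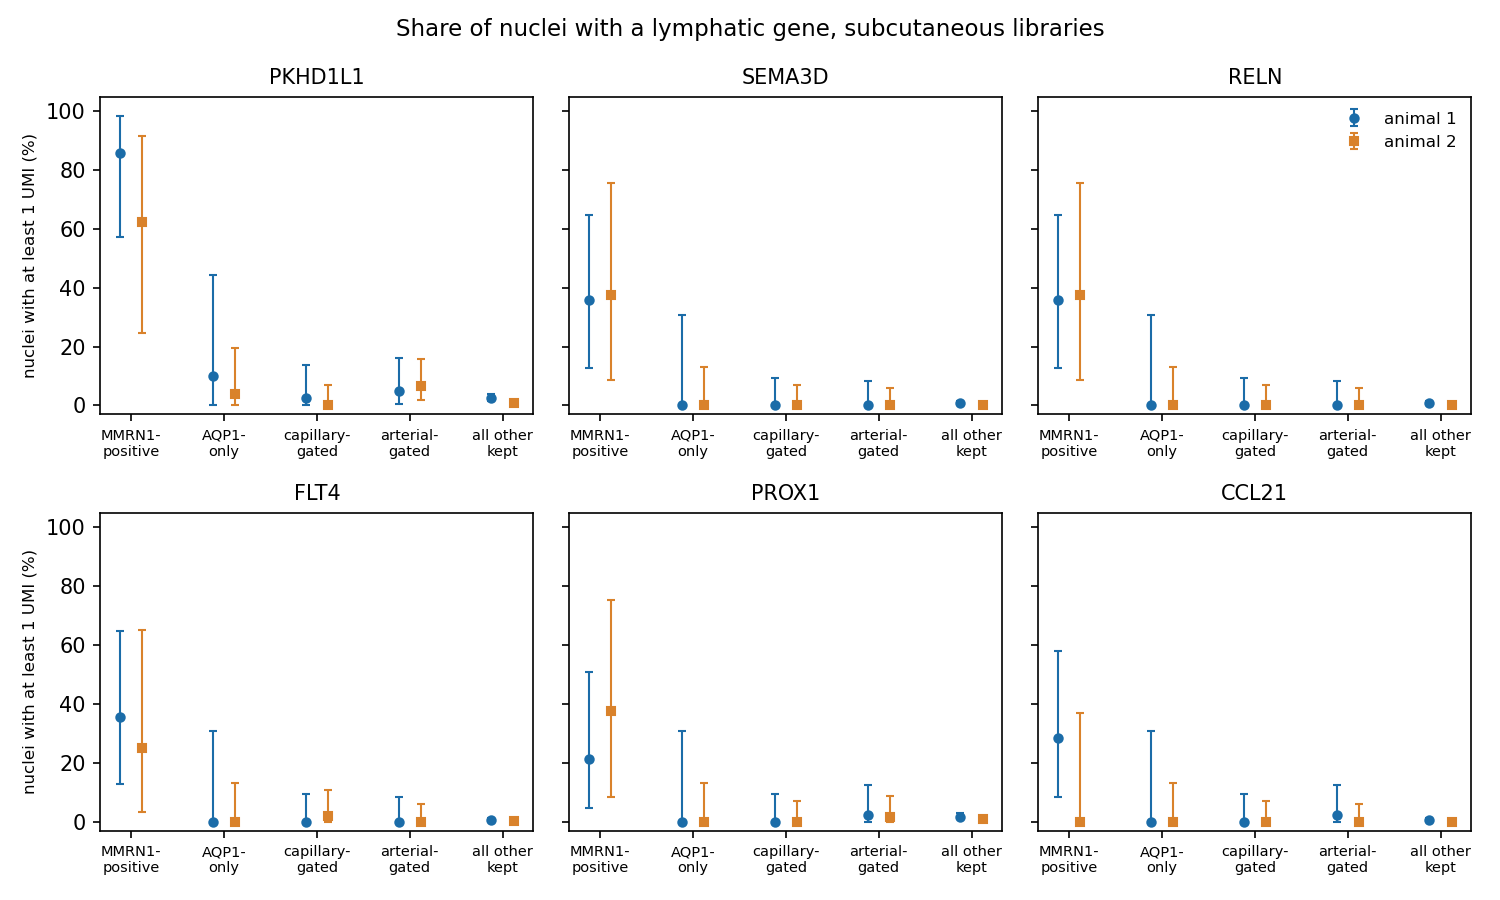
Share of nuclei with at least 1 UMI of 6 lymphatic genes, in percent, by nucleus class and animal in the subcutaneous libraries. Points are shares and bars are exact 95% Clopper-Pearson intervals over nuclei. PROX1 stands at 21.4% and 37.5% in MMRN1-positive nuclei and at 0 in AQP1-only nuclei, and PKHD1L1 at 85.7% and 62.5% in MMRN1-positive nuclei.

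Co-detection within single nuclei was counted for PROX1 or FLT4 and for a chosen set of 6 genes. PROX1 or FLT4 was found in 8 of 24 gated nuclei of animal 1 (33.3%, 15.6 to 55.3%) and 4 of 34 of animal 2 (11.8%, 3.30 to 27.5%), against 18 of 857 (2.10%) and 53 of 6094 (0.870%) of all other kept nuclei. It was found in 8 of 14 and 4 of 8 MMRN1-positive nuclei, and in 0 of 10 and 0 of 26 AQP1-only nuclei. At least 2 of the 6 genes PROX1, FLT4, RELN, CCL21, SEMA3D and PKHD1L1 were found together in 10 of 14 and 5 of 8 MMRN1-positive nuclei. The same was true of 0 AQP1-only, 0 capillary-gated and 0 arterial-gated nuclei in both animals. These 6 genes are part of the 20 lymphatic list genes outside the gate. They leave out NTS and STAB1, which had UMIs in AQP1-only nuclei. The contrast between branches thus depends partly on the choice of genes, made with earlier results known. Arterial-gated nuclei carry BMX or GJA5 and an endothelial gene but no AQP1, MMRN1, GPIHBP1, CD300LG, PDGFRA or CSF1R.

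The gate caught some but not all nuclei with several lymphatic genes. Of the kept nuclei with at least 2 of those 6 genes, 10 of 19 (52.6%) lay in the gate in animal 1 and 5 of 17 (29.4%) in animal 2. A further 5 and 8 carried an endothelial gene of the gate but neither AQP1 nor MMRN1 nor an excluded gene. In animal 1, 4 carried an excluded gene, and in animal 2, 1 did. MMRN1 itself was found in 23 kept nuclei of animal 1 and 26 of animal 2, of which 14 and 8 were gated. Of the MMRN1 nuclei outside the gate, 6 and 17 lacked the 6 endothelial genes, and 15 of those 17 had at least 10% muscle UMIs. PKHD1L1 was detected in 0 of those 6 and 2 of those 17, against 12 of 14 and 5 of 8 in the gate.

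AQP1 was also found in nuclei with arterial or capillary genes. Before exclusions, it was detected in 18 of 64 nuclei (28.1%) of animal 1 and 10 of 73 (13.7%) of animal 2 that carried BMX or GJA5 and an endothelial gene. Among nuclei with GPIHBP1 or CD300LG and an endothelial gene it was found in 10 of 52 (19.2%) and 6 of 58 (10.3%). Nuclei with genes of both kinds were counted with the arterial ones only. Endothelial-gene nuclei without those 4 genes carried AQP1 in 14 of 171 (8.19%) and 27 of 502 (5.38%). In nuclei without an endothelial gene the share was 1.01% and 0.764%. MMRN1 ran the other way in animal 1, at 8.19% of endothelial-gene nuclei without the 4 arterial and capillary genes, 1.56% of those with an arterial gene and 3.85% of those with a capillary gene. In animal 2 the MMRN1 shares were 1.59%, 0% and 1.72% in the same order. These orders are descriptions, and the shares overlap within their intervals for several pairs.

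The endothelial label was described with 12 pan-endothelial genes that the gate did not use. Their summed level over gated nuclei was 3092 CPM in animal 1 and 2752 CPM in animal 2, against 1441 and 366 CPM over all other kept nuclei. At least 1 such UMI was found in 22 of 24 gated nuclei of animal 1 (91.7%) and 21 of 34 of animal 2 (61.8%). The shares in all other kept nuclei were 35.0% and 9.93%. Of those, 594 nuclei of animal 1 and 5495 of animal 2 held no UMI of the 6 endothelial gate genes. Part of this difference therefore follows from the gate. The weakest support was in the MMRN1-positive nuclei of animal 2, where 3 of 8 had such a UMI. VWF, the clotting glycoprotein of endothelial granules used by the gate, had 17 UMIs in MMRN1-positive nuclei of animal 1 but 0 in those of animal 2, and 20 and 24 UMIs in AQP1-only nuclei.

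Of the markers of other cell types, muscle, adipocyte and progenitor genes were present in gated nuclei at lower levels than in all other kept nuclei. Lists for satellite cells, T and NK cells, B cells, mesothelium and red cells had 0 UMIs in them in both animals, and the macrophage and mast cell lists had 0 and 1. The adipocyte list stood at 2790 and 310 CPM in gated nuclei, against 5054 and 413 CPM in all other kept nuclei. The progenitor list stood at 3432 and 722 CPM, against 10546 and 1041 CPM. The gate left out nuclei with PDGFRA or CSF1R, so the progenitor and macrophage values follow partly from the choice of nuclei. The pericyte and smooth muscle list was not lower in both animals, at 1018 and 791 CPM (27 and 23 UMIs), against 1076 and 672 CPM in all other kept nuclei. Of the 27 UMIs, 14 lay in the AQP1-only nucleus with 26 AQP1 UMIs. The Schwann cell list had 4 and 2 UMIs in gated nuclei, with 4 of its 5 genes at 0. Red cells, named above as carrying AQP1, cannot be judged by this 0. None of their 5 list genes had enough counts to be tested against all other kept nuclei.

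Among vessel lists, the AQP1-only nuclei had the highest venous level of animal 1, though not of animal 2. The 16 venous genes, none of them used by the gate, summed to 5852 and 3132 CPM in AQP1-only and 2953 and 1715 CPM in MMRN1-positive nuclei. They summed to 4105 and 3596 CPM in capillary-gated and 3376 and 2985 CPM in arterial-gated nuclei. The list gene CCL14 stood at 2851 and 2632 CPM in capillary-gated nuclei, above its 1056 and 516 CPM over gated nuclei. Of the 4 venous genes tested between these classes, the other 3 had positive fold changes. Capillary list genes outside the gate summed to 6335 and 3784 CPM over gated nuclei, against 27884 and 10976 CPM in capillary-gated nuclei. Arterial list genes outside the gate summed to 980 and 1032 CPM over gated nuclei, against 5132 and 2317 CPM in arterial-gated nuclei. Both lists were thus lower in gated nuclei than in the class gated for them, in both animals. The gate excluded GPIHBP1, CD300LG, BMX and GJA5, while those classes were chosen by them. This direction therefore follows partly from the choice of nuclei.

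**Figure D3:**
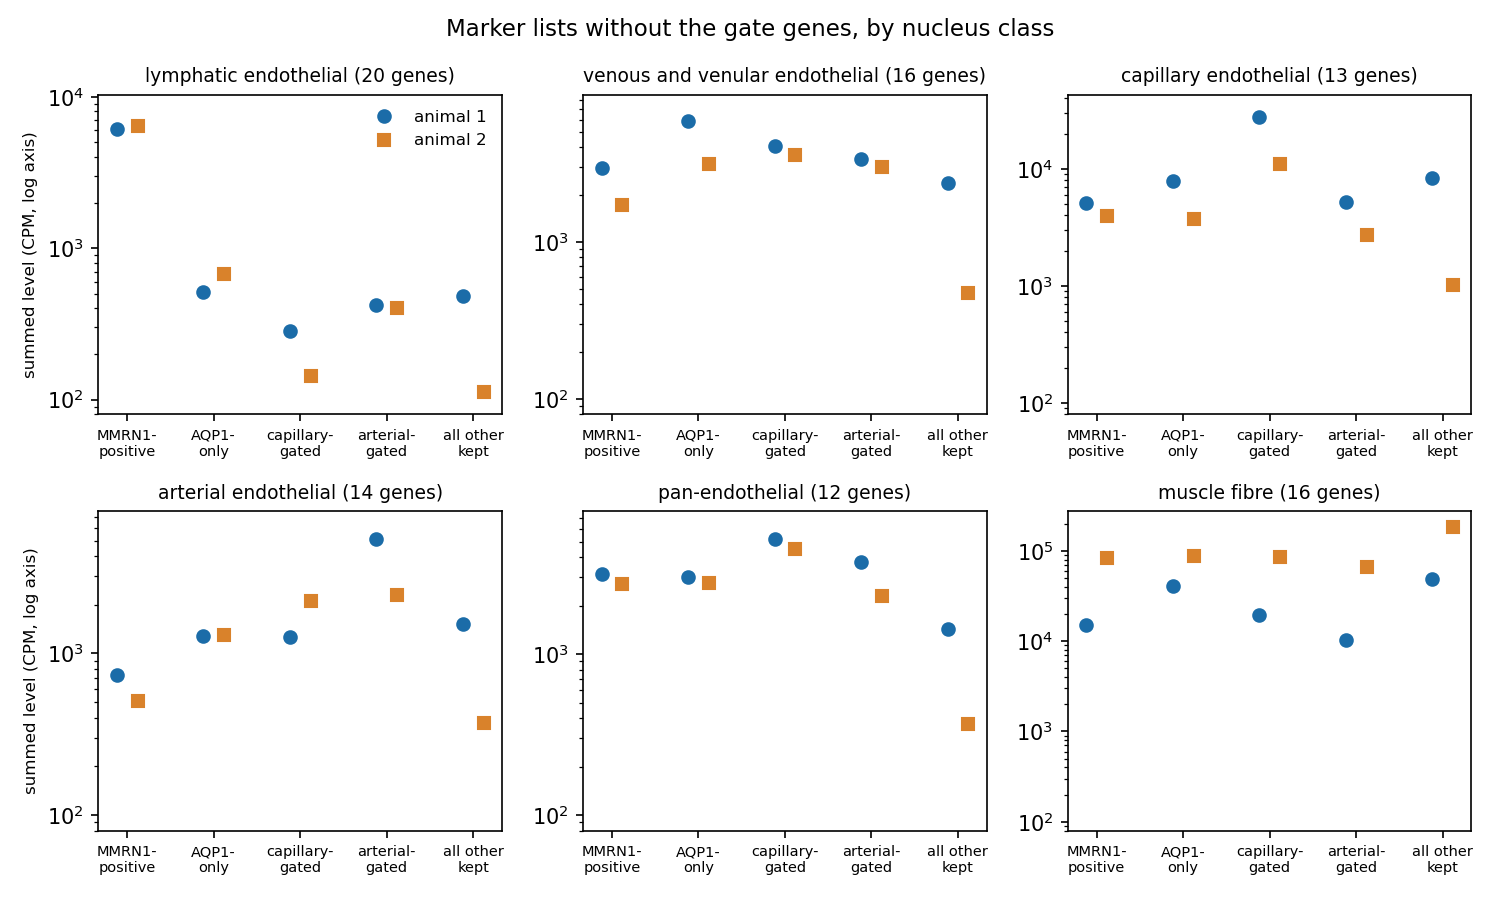
Summed level of 6 marker lists without the gate genes, in CPM on a log axis, by nucleus class, with 1 point per subcutaneous library. MMRN1-positive nuclei stand at 6174 and 6457 CPM for the lymphatic list, and muscle RNA is higher in animal 2 than in animal 1 in every class shown.

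To test single genes, UMIs were summed per library and class, and classes were compared with edgeR's quasi-likelihood test with the library as a block. Each comparison had 2 libraries. A gene was called at an adjusted p under 0.05, by the Benjamini-Hochberg method across every gene tested. Log2 fold changes stand with the standard error (SE), and levels are CPM in animals 1 and 2. The 14 gate genes were not tested. A list gene was tested only if it passed a filter on low counts, which a gene low in one class can pass through the other. The counts of list members below are therefore descriptions.

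Against all other kept nuclei of the same library, 28 of 7698 genes differed (0.364% of those tested), 23 higher in gated nuclei (0.299%) and 5 lower (0.065%). Of the 10 lymphatic list genes that passed the filter, 5 rose, and all 10 fold changes were positive, with a median of 3.70 against -0.45 over all genes tested. PKHD1L1 had the smallest adjusted p of all, at a log2 fold change of 4.44 ± 0.63 (adjusted p = 1.26e-08). SEMA3D stood at 339 and 206 CPM in gated nuclei, against 6.27 and 2.01 CPM (5.39 ± 0.96, adjusted p = 2.86e-05). FLT4 rose by 5.22 ± 0.98 (adjusted p = 1.12e-04). RELN stood at 264 and 172 CPM, against 9.85 and 1.76 CPM (4.76 ± 0.97, adjusted p = 8.75e-04). NTS stood at 37.7 and 241 CPM, against 1.79 and 4.77 CPM (4.38 ± 1.06, adjusted p = 0.0192). In all 5 the classes lay apart in both animals, though NTS rested on 1 UMI in animal 1. Alternative settings called PKHD1L1 in 8 of 9, SEMA3D in 6 of 7 and RELN in 5 of 7. NTS was called in 2 of 6, with adjusted p up to 0.805. DESeq2 called 161 genes, 41 higher and 120 lower, and 0 passed in edgeR without the library block.

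PROX1 did not pass. Its log2 fold change was 3.02 ± 0.86 with an adjusted p of 0.0861 in edgeR, and 0 of 8 alternative settings with an adjusted p called it, at values between 0.0658 and 0.805. STAB1 stood at 490 and 413 CPM, against 219 and 36.9 CPM (1.50 ± 0.60, adjusted p = 0.336). PDPN, ITGA9, an integrin of lymphatic valves in the mouse, and DTX1 had adjusted p of 0.620, 0.927 and 0.992. FLT4 was called under 6 of 7 alternatives, with adjusted p up to 0.332.

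Genes outside the lymphatic list that rose included regulators and surface proteins. NR2F1, a nuclear receptor related to NR2F2, stood at 490 and 378 CPM in gated nuclei, against 25.1 and 8.79 CPM (4.06 ± 0.72, adjusted p = 2.86e-05). Of its UMIs, 12 of 13 in animal 1 and 11 of 11 in animal 2 lay in MMRN1-positive nuclei. PTPRU, a receptor tyrosine phosphatase, rose by 4.38 ± 0.76 (adjusted p = 1.85e-05), and SBSPON by 5.16 ± 1.08 (adjusted p = 0.00150). GPM6A, a neuronal membrane glycoprotein, stood at 151 and 103 CPM, against 8.96 and 1.00 CPM (4.26 ± 1.11, adjusted p = 0.0331), and all its gated UMIs were in MMRN1-positive nuclei. Among 10 venous genes only PLVAP, the protein of endothelial diaphragms, rose, at 490 and 103 CPM against 15.2 and 3.52 CPM (4.27 ± 0.94, adjusted p = 0.00432). NR2F2 stood at 339 and 275 CPM, against 93.1 and 40.4 CPM, and did not pass (1.53 ± 0.66, adjusted p = 0.399).

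The 5 genes that fell were mostly known from muscle. ADSS1, the muscle form of adenylosuccinate synthase, had 0 UMIs in gated nuclei of both animals, against 121 and 288 CPM, and was at least 1.07-fold lower (adjusted p = 0.00448). PPP1R27, RRAD and ANKRD1 fell, with log2 fold changes of -3.14, -3.83 and -2.97. DCN, the fibroblast proteoglycan decorin, stood at 264 and 0 CPM, against 1231 and 242 CPM, and fell by 3.29 (adjusted p = 0.0192). The gate left out nuclei with PDGFRA, which stayed among all other kept nuclei, so the fall of DCN follows partly from that choice. None of 16 tested muscle fibre list genes passed, though all 16 fold changes were negative, with a median of -1.84. Without nuclei of at least 10% muscle UMIs, 63 genes differed, and 23 of the 28 were among them. Pan-endothelial genes were all positive, 10 of 10 with a median of 1.13, and 0 passed.

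Against arterial-gated nuclei the genes higher in gated nuclei included PKHD1L1, NR2F1, NR2F2 and FABP5, and the lower ones PTGS2, HEG1, IGFBP3 and JAG1. In all, 112 of 886 genes differed (12.6%), 44 higher in gated nuclei (4.97%) and 68 lower (7.67%). PKHD1L1 stood at 1320 and 998 CPM, against 33.8 and 77.7 CPM in arterial-gated nuclei (4.32 ± 0.51, adjusted p = 1.57e-13). NR2F1 had 0 UMIs in arterial-gated nuclei of both animals and was at least 7.47-fold higher in gated nuclei (adjusted p = 4.83e-07). NR2F2 stood at 339 and 275 CPM, against 0 and 31.1 CPM (4.09 ± 0.99, adjusted p = 0.00115). Of the venous genes tested, 2 of 4 rose, the other one being the chemokine CCL14 at 1056 and 516 CPM against 186 and 46.6 CPM (2.81 ± 0.50, adjusted p = 1.98e-06). STAB1 rose by 1.58 ± 0.55 (adjusted p = 0.0354), and was called under 2 of 7 alternatives. STAB1 and PKHD1L1 were the only 2 tested of the 20 lymphatic list genes outside the gate.

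Further single genes rose. FABP5, the only called one of 6 tested genes of fatty acid uptake and a fatty-acid-binding protein, stood at 905 and 894 CPM in gated nuclei, against 84.4 and 46.6 CPM in arterial-gated nuclei (3.78 ± 0.53, adjusted p = 6.44e-10). IGFBP5, a binding protein of insulin-like growth factors, rose by 4.27 ± 0.65 (adjusted p = 1.29e-08), but 17 of its 23 UMIs in animal 1 came from 1 nucleus. CDKN1C, a cell cycle inhibitor, rose by 4.30 ± 0.94, PTPRU by 3.95 ± 0.85, AKAP12 by 2.91 ± 0.56 and TC2N by 2.89 ± 0.61. SMAD1, which transmits BMP signals, stood at 452.5 and 310 CPM, against 84.4 and 46.6 CPM (2.54 ± 0.72, adjusted p = 0.00820), and all its gated UMIs lay in MMRN1-positive nuclei.

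Genes of shear response and vascular tone moved in both directions, 3 higher and 4 lower of 12 tested. PTGS2, the inducible enzyme of prostaglandin synthesis, stood at 37.7 and 34.4 CPM in gated nuclei, against 1064 and 777 CPM in arterial-gated nuclei (-4.53 ± 0.67, adjusted p = 5.10e-09). PTGS1 fell by 2.15 (adjusted p = 0.0115), and PTGIS, the prostacyclin synthase, by 1.57 (adjusted p = 0.0356). EDN1, the precursor of a vasoconstrictor, fell by 2.38 (adjusted p = 0.0446), and was called under 1 of 5 alternatives. KLF4, a flow-responsive transcription factor, rose by 1.55 (adjusted p = 0.0122), and its classes overlapped across animals. KLF6 rose by 1.12 (adjusted p = 0.0345). ADM, the vasodilator adrenomedullin, rose by 1.57 (adjusted p = 0.00415), with 26 of its 30 UMIs in animal 1 in 1 nucleus.

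Of the single genes lower in gated nuclei, several are known from endothelium, while of 6 tested genes of the endothelial junction list 0 passed, 4 being positive and 2 negative. HEG1, a receptor at endothelial junctions, stood at 0 and 68.8 CPM in gated nuclei, against 895 and 575 CPM (-4.19 ± 0.70, adjusted p = 3.46e-07). IGFBP3 stood at 1131 and 482 CPM, against 9066 and 4136 CPM (-3.01 ± 0.47, adjusted p = 2.29e-08). JAG1, a Notch ligand of arterial endothelium, stood at 226 and 344 CPM, against 2802 and 700 CPM (-2.32 ± 0.46, adjusted p = 2.94e-05). It was the only called one of 3 arterial list genes, and its log2 ratio was -3.52 in animal 1 alone and -0.97 in animal 2 alone. Arterial-gated nuclei were chosen by BMX or GJA5, which the gate excluded, so lower arterial genes follow partly from that choice. PLXNA2, EXT1, SHROOM4, ADAMTSL5 and ARID5A fell too, with log2 fold changes of -3.98, -3.92, -3.38, -2.95 and -2.61, and APBB2 fell as well. TEK, the angiopoietin receptor, fell by 1.25 (adjusted p = 0.0327), and was called under 1 of 8 alternatives. Of 11 immediate early and heat shock genes, EGR1, JUNB and ATF3 fell, at -1.90, -1.66 and -1.64.

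Muscle RNA was also higher in the gated than in the arterial-gated nuclei, at 2.66% and 8.63% against 1.04% and 6.67% of UMIs. All 14 tested muscle fibre genes had positive fold changes, with a median of 0.75 against 0.05 over all genes tested, and MYH7 and TNNC1 rose, by 1.48 and 1.32. ACTA2, the smooth muscle actin, also rose, at 302 and 241 CPM against 50.6 and 62.2 CPM (2.24 ± 0.82, adjusted p = 0.0489), and was called under 0 of 5 alternatives. The pericyte and smooth muscle list stood at 1018 and 791 CPM in gated nuclei, against 692 and 389 CPM in arterial-gated nuclei. Without nuclei of at least 10% muscle UMIs 96 genes differed, and 80 of the 112 were among them. No gene was called with every nucleus thinned to 300 UMIs, or without the library block.

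Against capillary-gated nuclei, 0 of 1020 genes passed (0%), with a smallest adjusted p of 0.128, although 190 (18.6%) had an unadjusted p under 0.05 in edgeR and DESeq2 called 37. Other settings called up to 132 genes, so this comparison turns on the setting and its values are given as measured. PKHD1L1 had 6.25 ± 0.66 here (edgeR unadjusted p = 4.99e-04), and 4.32 ± 0.51 against arterial-gated nuclei (edgeR unadjusted p = 1.77e-16). Fold changes of similar size beside their SE thus had very unlike p-values. The counts of calls therefore do not rank the classes by likeness to gated nuclei. All 11 tested capillary list genes had negative fold changes, with a median of -1.83 against 0.04 over all genes. The classes were chosen without and with GPIHBP1 or CD300LG, so this direction follows partly from the gates. FABP5 stood at 905 and 894 CPM in gated nuclei, against 6415 and 3352 CPM in capillary-gated nuclei (-2.38 ± 0.30, adjusted p = 0.128). CD36, the fatty acid translocase, stood at 603 and 275 CPM, against 3834 and 777 CPM (-2.25 ± 0.37, adjusted p = 0.152). FABP4, a fatty-acid-binding protein of capillaries and adipocytes, stood at 2376 and 68.8 CPM, against 11798 and 475 CPM (-2.38 ± 0.24, adjusted p = 0.128), and its 2 classes overlapped across animals.

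Within each animal these differences had the same direction. BTNL9, CA4, RGCC, TIMP4 and PDK4 had log2 fold changes of -4.84, -1.79, -1.77, -3.25 and -3.05. CLDN5, a tight junction claudin, and COL4A1, a basement membrane collagen, had values of -1.48 and -1.90. In the other direction, PKHD1L1 had 35 and 29 UMIs in gated nuclei, against 2 and 0 in capillary-gated nuclei (6.25 ± 0.66, adjusted p = 0.128). SEMA3D had 0 UMIs in capillary-gated nuclei and was at least 4.78-fold higher (adjusted p = 0.207). MDFIC stood at 603 and 585 CPM, against 61.4 and 57.5 CPM (3.26 ± 0.40, adjusted p = 0.128). NR2F1 had a value of 4.79 ± 0.72 (adjusted p = 0.139), STAB1 of 2.00 ± 0.40 (adjusted p = 0.162) and NR2F2 of 1.28 ± 0.47 (adjusted p = 0.267). Muscle UMIs were close, at 2.66% and 8.63% in gated against 1.94% and 8.54% in capillary-gated nuclei.

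The branches of the gate were then compared directly, MMRN1-positive over AQP1-only. With 8 MMRN1-positive nuclei in animal 2 the planned minimum of 10 nuclei per sum was not met, and the test was run with a lower minimum of 5 chosen after seeing the data. Of 188 genes tested, 7 differed (3.72%), 5 higher in MMRN1-positive nuclei (2.66%) and 2 lower (1.06%). PKHD1L1 stood at 2282 and 2825 CPM in MMRN1-positive nuclei, against 86.1 and 52.2 CPM in AQP1-only nuclei (5.24 ± 0.95, adjusted p = 2.11e-05). TC2N stood at 1074 and 1312 CPM, against 86.1 and 0 CPM (4.94 ± 1.34, adjusted p = 0.0134). GALNT1, which starts O-linked glycosylation, rose by 2.94 ± 0.90 (adjusted p = 0.0388). ADM and the amino acid transporter SLC38A2 also rose, by 2.46 and 2.92, but 26 of 30 ADM UMIs of animal 1 and 30 of 47 SLC38A2 UMIs of animal 2 came from 1 nucleus each.

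AQP1-only nuclei carried more CD74 and IGF2. CD74, the invariant chain of antigen presentation by MHC class II, stood at 336 and 303 CPM in MMRN1-positive nuclei, against 2410 and 940 CPM in AQP1-only nuclei (-2.25 ± 0.68, adjusted p = 0.0388). IGF2, an insulin-like growth factor, stood at 403 and 0 CPM, against 3012 and 783 CPM (-3.12 ± 0.74, adjusted p = 0.00371), with 23 of its 35 UMIs of AQP1-only nuclei in animal 1 in 1 nucleus. SMAD1 had 12 and 9 UMIs in MMRN1-positive nuclei and 0 in AQP1-only nuclei, and did not pass (at least 3.12-fold higher, adjusted p = 0.195). NR2F1 had 12 and 11 UMIs, against 1 and 0 (adjusted p = 0.166). Muscle RNA was lower in animal 1 and close in animal 2, at 1.52% and 8.36% in MMRN1-positive against 4.13% and 8.76% in AQP1-only nuclei, and 13 of 14 tested muscle genes had negative fold changes, with a median of -0.44 against -0.34 over all genes tested. No gene passed with RLE size factors in place of TMM, or without the library block.

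Against capillary-gated nuclei, FABP5, CD36, FABP4 and PDK4 were lower in AQP1-only nuclei, and STC1, RAMP3 and IGFBP3 were higher. This comparison and the next were added after seeing the data, and share their capillary-gated and arterial-gated sums with the comparisons above. Of 855 genes, 26 differed (3.04%), 13 in each direction (1.52%). Capillary list genes were negative in all 10 of those tested, with a median of -2.05 against a median near 0 over all genes, and 4 fell. As above, this direction follows partly from the gates. FABP5 stood at 947 and 1148 CPM in AQP1-only nuclei, against 6415 and 3352 CPM in capillary-gated nuclei (-2.15 ± 0.43, adjusted p = 0.00238). CD36 stood at 516 and 209 CPM, against 3834 and 777 CPM (-2.55 ± 0.57, adjusted p = 0.00526). FABP4 stood at 3529 and 0 CPM, against 11798 and 475 CPM (-2.23 ± 0.48, adjusted p = 0.00338), and its log2 ratio was -1.72 in animal 1 alone and -4.21 in animal 2 alone. BTNL9 fell by 3.93 (adjusted p = 0.0426).

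Of 7 tested genes each of the junction and basement membrane lists, 1 fell, CLDN5 in the junction list and COL4A1 in the basement membrane list. PDK4, a kinase that limits glucose oxidation, stood at 689 and 209 CPM, against 5665 and 762 CPM (-2.67 ± 0.55, adjusted p = 0.00271). CLDN5 fell by 1.68 (adjusted p = 0.0426), COL4A1 by 2.26 (adjusted p = 0.0234), IGFBP7 by 2.24 (adjusted p = 0.0280) and the G protein subunit GNG11 by 2.27 (adjusted p = 0.0169). ADGRL4, an adhesion receptor of endothelium, had 0 UMIs in AQP1-only nuclei of both animals, against 504 and 259 CPM (adjusted p = 0.0256). CCL14 stood at 1463 and 522 CPM, against 2851 and 2632 CPM, and fell by 1.66 (adjusted p = 0.0376).

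STC1, the secreted hormone stanniocalcin, stood at 516 and 1096 CPM in AQP1-only nuclei, against 0 and 101 CPM in capillary-gated nuclei (4.07 ± 0.78, adjusted p = 0.00180). RAMP3, a partner of the adrenomedullin receptor, stood at 258 and 626 CPM, against 12.3 and 43.2 CPM (3.85 ± 0.82, adjusted p = 0.00320). IGFBP3 stood at 1721 and 731 CPM, against 123 and 144 CPM (3.03 ± 0.64, adjusted p = 0.00320). These 3 genes thus stood higher than in capillary-gated nuclei in both animals. CLU, the chaperone clusterin and a member of the venous list, stood at 1893 and 1253 CPM, against 565 and 187 CPM (2.12 ± 0.51, adjusted p = 0.0107). MDFIC rose by 3.13 ± 0.71 (adjusted p = 0.00526), and NDRG1, RASSF9, S100A4, KARS1 and EHD4 rose by 2.72, 2.85, 2.48, 2.97 and 2.66. IGFBP5 rose by 3.82 ± 0.71 (adjusted p = 0.00180), but 17 of its 18 UMIs in animal 1 came from 1 nucleus. NR2F2 had a value of 1.36 ± 0.71 and did not pass (adjusted p = 0.456).

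Muscle UMIs were 4.13% and 8.76% in AQP1-only against 1.94% and 8.54% in capillary-gated nuclei, and 13 of 15 tested muscle genes had positive fold changes with 0 called. Without nuclei of at least 10% muscle UMIs 8 genes differed, and without the library block or with thinned nuclei 0 did.

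Against arterial-gated nuclei, 35 of 789 genes differed in AQP1-only nuclei (4.44%), 11 higher (1.39%) and 24 lower (3.04%). FABP5 stood at 947 and 1148 CPM in AQP1-only nuclei, against 84.4 and 46.6 CPM in arterial-gated nuclei (3.91 ± 0.62, adjusted p = 1.66e-07). CCL14 stood at 1463 and 522 CPM, against 186 and 46.6 CPM (3.03 ± 0.58, adjusted p = 4.67e-05), and was the only called one of 3 venous genes. FABP5 and CCL14 therefore lay between the arterial-gated and capillary-gated levels in AQP1-only nuclei of both animals. PTGS2 stood at 86.1 and 52.2 CPM, against 1064 and 777 CPM (-3.76 ± 0.79, adjusted p = 2.72e-04). CAVIN2, a coat protein of caveolae, stood at 0 and 104 CPM, against 878 and 560 CPM (-3.40 ± 0.81, adjusted p = 0.00237). HEG1, ST6GAL1 and FGF2 fell, at -3.43, -3.17 and -2.76. Among 3 arterial list genes 0 passed, JAG1 having an adjusted p of 0.0610. All 14 tested muscle genes were positive, with a median of 1.04 against -0.02 over all genes, and MYH7 rose by 2.02 (adjusted p = 0.0130). ACTA2 stood at 602 and 313 CPM, against 50.6 and 62.2 CPM (2.81 ± 0.86, adjusted p = 0.0281), and the pericyte and smooth muscle list at 1893 and 783 CPM, against 692 and 389 CPM. DESeq2 called 9 genes, of which 66.7% were higher, against 31.4% of the 35.

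**Figure D4:**
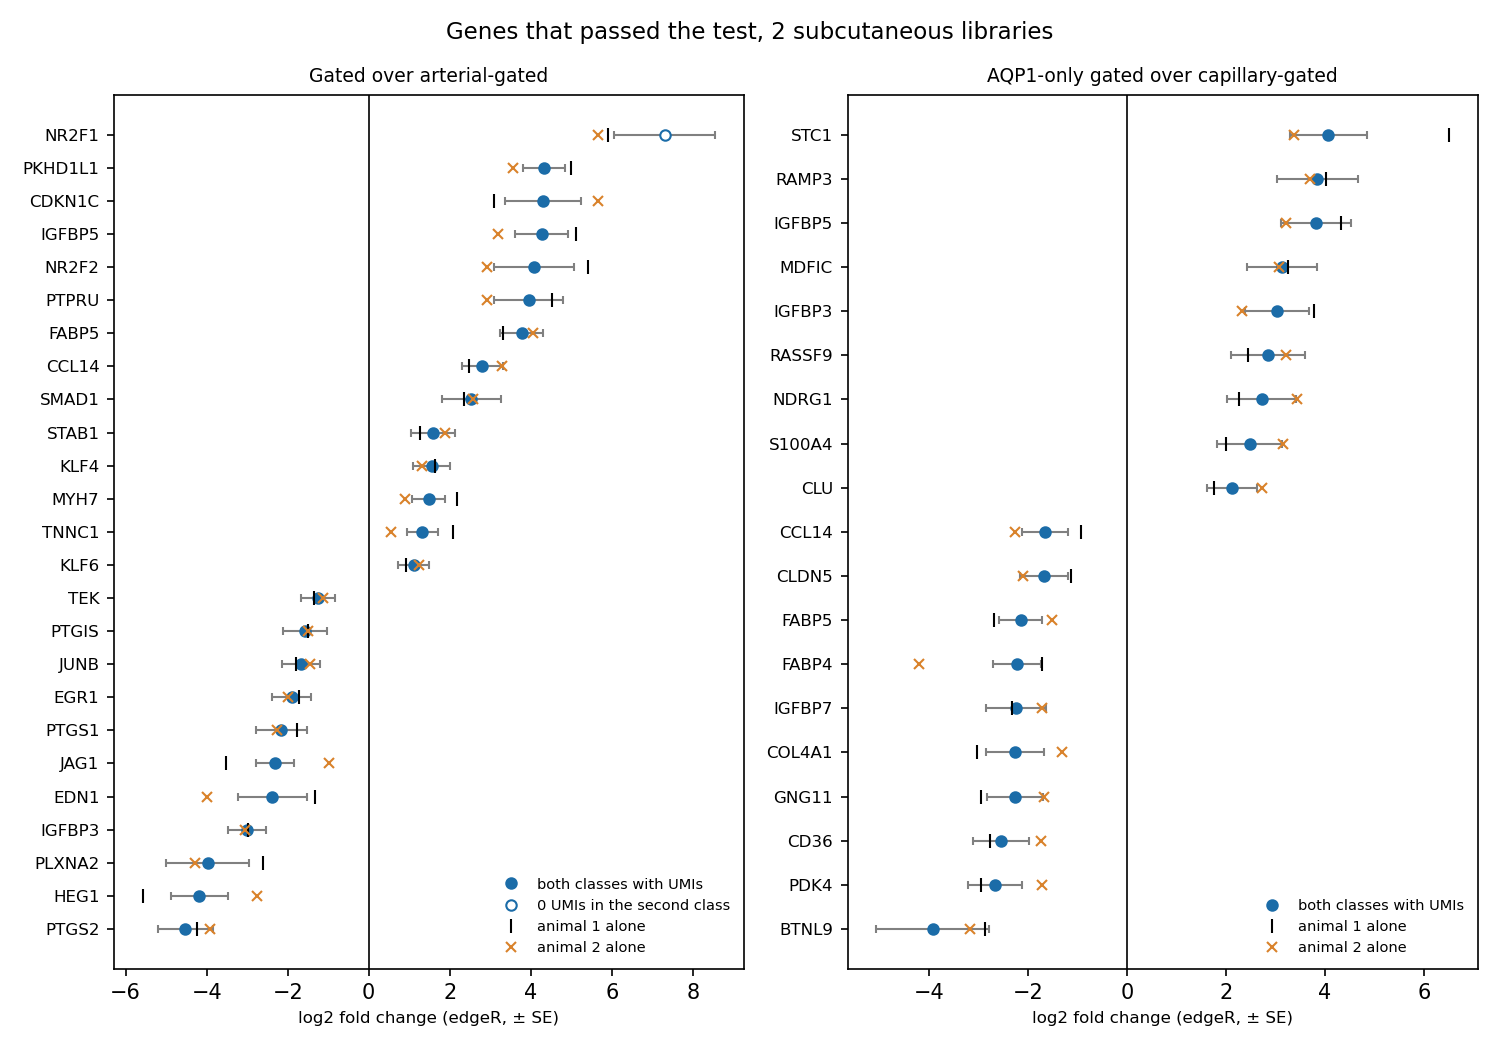
Log2 fold change (edgeR, 2 subcutaneous libraries) of named genes that passed the test, as points with the SE as bars, for gated over arterial-gated nuclei (left) and AQP1-only over capillary-gated nuclei (right). Vertical ticks and crosses give the log2 ratio in animal 1 alone and animal 2 alone, and the open circle marks NR2F1, which had 0 UMIs in arterial-gated nuclei and whose fitted value is no bound. PTGS2 stands at -4.53 on the left and FABP5 at -2.15 on the right.

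The same gate applied to the intramuscular libraries of the same animals found 9 of 1777 kept nuclei in animal 1 and 0 of 63 in animal 2. The gated share of kept nuclei was 2.72% (1.75 to 4.03%) and 0.555% (0.385 to 0.774%) in the subcutaneous libraries, against 0.506% (0.232 to 0.959%) and 0%, which allows up to 4.76%, in the intramuscular libraries. Among nuclei with an endothelial gene of the gate, the share was 8.36% (5.43 to 12.2%) and 5.37% (3.75 to 7.43%), against 1.81% (0.831 to 3.41%) and 0 of 12, which allows up to 25%. The mean over kept nuclei was 1.64 ± 1.53% in subcutaneous and 0.253 ± 0.358% in intramuscular libraries (SD, n = 2 each; exact two-sided permutation p = 0.333). With 6 arrangements of the libraries, 0.333 is the smallest p this design allows. The difference was 1.39 percentage points, and 0.302 without the subcutaneous library of animal 1.

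Both branches had members in each depot. MMRN1-positive nuclei made up 1.59% and 0.131% of kept nuclei in the subcutaneous libraries, against 1 nucleus (0.0563%) in the intramuscular library of animal 1. AQP1-only nuclei made up 1.14% and 0.424%, against 0.450%. Between the subcutaneous library of animal 2 and the intramuscular library of animal 1, the intervals of both shares overlapped. The 9 intramuscular gated nuclei held 14968 UMIs with a median of 1868, and PROX1, FLT4, PKHD1L1, SEMA3D, RELN and CCL21 had 0 UMIs in them, which allows up to 200.4 CPM per gene. The subcutaneous PKHD1L1 levels of 1320 and 998 CPM lay above that limit, but 8 of the 9 intramuscular nuclei were AQP1-only, and the level in subcutaneous AQP1-only nuclei was 86.1 and 52.2 CPM, below it.

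A test of expression between depots could set 2 subcutaneous sums against 1 intramuscular sum only, and the lone sum was taken to vary like the other group. Of 752 genes, 121 differed (16.1%), 64 higher in subcutaneous gated nuclei (8.51%) and 57 lower (7.58%). With RLE size factors 38 genes differed, 11 higher and 27 lower. The 64 included all 14 tested muscle fibre genes, with a median log2 fold change of 9.14 against 0.34 over all genes, and muscle genes took 2.66% and 8.63% of UMIs in subcutaneous against 0.00668% in intramuscular gated nuclei. The 57 included 6 of 8 tested adipocyte genes, and the adipocyte list summed to 2790 and 310 CPM in subcutaneous against 14230 CPM in intramuscular gated nuclei. Both lists thus moved with the depot, and their part in the other calls was not tested. PKHD1L1 passed (adjusted p = 0.00187), though the branches are mixed in other proportions in the 2 depots. CD36 stood at 603 and 275 CPM, against 2004 CPM (-2.31 ± 0.82, adjusted p = 0.0352). With 1 intramuscular sum, depot and library cannot be told apart.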

How the data were processed

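Each library was deposited as a matrix of raw UMI counts (genes by barcodes) from Cell Ranger 6.0.1, per the file headers. ARS-UCD1.2 is the build in the submitters' processing notes. Which annotation release was used, and if introns were counted, is not given in the sources. The matrices list 21861 features, of which 4251 have no name. Barcodes with at least 200 detected genes were kept, with no mitochondrial filter and no doublet caller.

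UMIs were summed per library and class, and tested with edgeR 4.0.16 in R 4.3.3 (filterByExpr, TMM, quasi-likelihood F test, library as a block, 1 residual degree of freedom). The SE is the absolute log2 fold change over the square root of F. Shares have Clopper-Pearson intervals, and ratios of UMIs exact intervals, both from scipy 1.17.1. A count of 0 was read as allowing 3 counts in that library, and a fold against it is the lower bound this gives. The code was tested on simulated counts, with a fixed spread and the same mean profile in both libraries. Crowding of UMIs in single nuclei was not simulated, so recovery in the real sums may differ. Against all other kept nuclei the code recovered 10% of 4-fold and 27% of 8-fold changes. It recovered 43% and 91% against capillary-gated nuclei, and 59% and 94% against arterial-gated nuclei. Genes that did not pass were thus not shown to be alike in both classes.

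The gate, the members and the gene lists were chosen with earlier results of these data known. The named genes were, in each direction, up to 10 called ones of largest change at 50 CPM or more and apart in both libraries, the 3 smallest p-values where fewer than 3 passed, tested vessel list genes, the leading members of pathway lists, PROX1 and FLT4. Some genes the rule names are not reported here. DCN, KLF4, KLF6, PTGIS, EDN1, MYH7, TNNC1, ACTA2, VWF and the genes given by UMIs per branch were added after their values were seen. Alternatives were the block, RLE size factors, DESeq2 1.42.0, count and nucleus filters, muscle and mitochondrial limits, thinning to 300 UMIs and leaving out a library. Of 91 genes named in the tests, 29 overlap another gene in a gene table of another assembly (ARS-UCD2.0), among them FABP5, SEMA3D, STAB1, JAG1, SMAD1, ADM and MYH7, so that some of their UMIs may belong to that gene.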

Additional observations from a re-analysis of the deposited data

How the results depend on the processing

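The library was a block in every comparison of classes, because both sums come from the same library. Without the replicate block edgeR called 0 genes in each of them. For expression between depots no paired fit could be made, because the intramuscular library of animal 2 held 0 gated nuclei. Against capillary-gated nuclei, where 0 genes passed, RLE size factors gave 108 calls, DESeq2 37, no count filter 132, at least 500 genes per nucleus 94, under 10% mitochondrial UMIs 41, under 10% muscle UMIs 96 and thinning to 300 UMIs 8. Against arterial-gated nuclei, where 112 passed, DESeq2 gave 33, 500 genes 53, the mitochondrial limit 69, at least 2 endothelial UMIs 43 and thinning 0. Against all other kept nuclei, where 28 passed, DESeq2 gave 161, no count filter 10, 2 endothelial UMIs 13, the muscle limit 63 and thinning 67. Between branches, where 7 passed, RLE gave 0, DESeq2 3, no count filter 1 and 500 genes 3, and thinning could not be fitted. For AQP1-only over capillary-gated nuclei, where 26 passed, DESeq2 gave 5, the mitochondrial limit 11, the muscle limit 8 and thinning 0. For AQP1-only over arterial-gated nuclei, where 35 passed, DESeq2 gave 9, 500 genes 10, the mitochondrial limit 8, 2 endothelial UMIs 0, the muscle limit 8 and thinning 0. For the depots, where 121 passed, RLE gave 38, DESeq2 34, the muscle limit 67, and 0 passed with no count filter, 500 genes, the mitochondrial limit or thinning. The cause of these changes was not tested.

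The PROX1 share in gated nuclei exceeded that in all other kept nuclei by 9.41 percentage points on average, and by 4.43 after thinning. From 1 library alone it was 8.07 to 10.7, and the same for FLT4 was 5.75 to 20.2. Leaving out 1 library, the depot difference in the gated share ranged from 0.302 to 2.47 points of kept nuclei and from 4.47 to 7.46 points of endothelial-gene nuclei. Within an animal, the pairing gave 2.22 and 0.555 points of kept nuclei, and 6.55 and 5.37 points of endothelial-gene nuclei. Every exact p for these shares was 0.333 with 2 libraries per depot. Of the named genes' adjusted values under the alternatives, 591 kept their side of the threshold, 334 no longer passed and 99 newly passed. Depth limits all of this: the gated sums held 26519 and 29070 UMIs, and 12 and 25 members rest on 1 UMI of AQP1 or MMRN1.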

Other observations

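Signalling genes of endothelium beyond FLT4 gave few calls against all other kept nuclei in edgeR. KDR, the main VEGF receptor of blood endothelium, stood at 226 and 241 CPM in gated nuclei of animals 1 and 2, against 70.7 and 24.1 CPM in all other kept nuclei (1.71 ± 0.76, adjusted p = 0.430). CALCRL, the receptor for adrenomedullin, stood at 339 and 413 CPM, against 144 and 26.6 CPM (1.81 ± 0.62, adjusted p = 0.218). Over all genes tested, 0.364% differed in this comparison. Of 11 VEGF and angiopoietin genes tested, 1 rose, which was FLT4. Of 14 guidance genes 2 rose, SEMA3D and RELN, and of 21 endothelial transcription factors 1 did, NR2F1. Of 11 Notch genes and 12 junction genes, 0 passed in either direction. This does not show them to be alike, since the test recovered 27% of simulated 8-fold changes.

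Some endothelial genes were unevenly spread over the branches and were not tested there. CAVIN2, the caveolar coat protein, had 14 and 6 UMIs in MMRN1-positive nuclei, against 0 and 2 in AQP1-only nuclei. PLVAP had 3 and 0 UMIs in MMRN1-positive nuclei, against 10 and 3 in AQP1-only nuclei. ACKR1, a chemokine-binding receptor of venules, had 0 UMIs in MMRN1-positive nuclei of both animals, against 2 and 0 in AQP1-only nuclei. Both branches thus held few molecules of each.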
